A study of Mus musculus with 6 samples.

Results

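The platelet-derived growth factor (PDGF) genes of the embryonic mouse kidney comprise the ligand genes Pdgfa, Pdgfb, Pdgfc and Pdgfd and the receptor genes Pdgfra and Pdgfrb. They were taken by name, 6 of the 24749 genes in the table, and all 6 were expressed above the minimum for testing (a mean of 0.5 FPKM, fragment counts scaled to transcript length and library size). RNA from dissected kidneys at E15.5 (embryonic day) was sequenced in 3 libraries of the genotype Foxd1cre; Yapc/c;Tazc/c, called knockout here, and 3 libraries labelled wild type and Cre negative, on a mixed strain. In the knockout, Foxd1cre deletes loxP-flanked Yap (Yap1) and Taz (Wwtr1) alleles in the stromal lineage, and cells of other lineages in the dissected kidney are not targeted. All knockout libraries carry Cre and no wild-type library does. An effect of Cre itself thus cannot be told apart from the loss of Yap and Taz. The labels do not state whether Cre-negative kidneys carried floxed alleles, or whether libraries came from single or pooled embryos or from separate litters. All p-values below thus rest on how far these 6 libraries differ among themselves, and part of that may be technical.

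PDGF ligands are secreted dimers that activate receptor tyrosine kinases. PDGF-A and PDGF-C act mainly through the alpha receptor, and PDGF-B and PDGF-D mainly through the beta receptor. PDGF-C and PDGF-D carry a CUB domain that proteases must remove before they can bind. In the developing kidney, PDGF-B from endothelium recruits mesangial cells and pericytes, which carry the beta receptor, while the alpha receptor marks interstitial mesenchyme. Foxd1-lineage stroma gives rise to most cells that carry these receptors, and the series asks how YAP and TAZ bear on pericyte differentiation within it.

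Promoter sequences are shown for Pdgfc and Pdgfd, the CUB-domain ligands, because they had the largest positive and the largest negative log2 change among the 6 genes. YAP and TAZ reach DNA through TEAD factors. The RefSeq table (GRCm38.p6) held windows for 4 of the 6 genes (Pdgfa, Pdgfc, Pdgfd and Pdgfra), each from 250 bases before to 50 bases after an annotated start, read along the gene's strand. The Pdgfc window is chr3:81036166-81036465 on the plus strand and the Pdgfd window chr9:6168236-6168535 on the plus strand. Capitals mark every match, on either strand, to the TEAD core GGAATG, to the AP-1 motif TGANTCA or to the CArG box bound by SRF.
Pdgfc: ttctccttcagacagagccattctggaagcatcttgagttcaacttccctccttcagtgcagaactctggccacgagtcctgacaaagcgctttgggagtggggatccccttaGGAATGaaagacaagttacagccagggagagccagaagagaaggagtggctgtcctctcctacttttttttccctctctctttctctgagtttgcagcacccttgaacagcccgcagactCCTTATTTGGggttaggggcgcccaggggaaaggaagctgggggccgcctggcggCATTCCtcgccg
Pdgfd: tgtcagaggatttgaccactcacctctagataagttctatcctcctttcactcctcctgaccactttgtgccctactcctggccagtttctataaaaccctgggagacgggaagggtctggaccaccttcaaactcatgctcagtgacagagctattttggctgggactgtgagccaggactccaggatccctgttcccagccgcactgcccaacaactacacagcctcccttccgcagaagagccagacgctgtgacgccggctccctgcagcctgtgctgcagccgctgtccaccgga
The Pdgfc window held the TEAD core 2 times, beginning 137 bases before the start and at base 39 after it, and 1 CArG box beginning 17 bases before the start, with no overlap between them. The Pdgfd window held 0 matches to these motifs, as did the Pdgfra window and both Pdgfa windows. Of 32851 promoter windows of the same length, 14.7% held the TEAD core, 7.81% the AP-1 motif and 1.63% a CArG box. A match describes the letters of the window, and binding was not measured in this series.

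The libraries were checked before the PDGF genes were read. Depth was approximated from the lowest values on long genes with a single transcript at 12800000 to 15700000 fragments per library, where 1 fragment on a 2 kb transcript is worth 0.0318 to 0.0392 FPKM. Wwtr1 measured 13.5, 12.8 and 12.2 FPKM in knockout kidneys, against 20.2, 17.7 and 18.5 FPKM in wild-type kidneys (limma adjusted p = 0.0235), and Yap1 48.7, 43.2 and 44.2 FPKM in knockout kidneys, against 45.5, 52.7 and 55.0 FPKM in wild-type kidneys (limma adjusted p = 0.378). The log2 change of Wwtr1 was -0.51, and -0.55 to -0.46 under the alternatives. Its call was lost with libraries rescaled to equal sums (limma adjusted p = 0.0517), with the replicate number as a block (0.108) and without any 1 of 4 libraries, knockout 1, 2 and 3 and wild type 2 (0.0682 to 0.117). Both values cover all exons, floxed or not, and untargeted cells. All 7 kidney identity genes listed were tested and 0 called, with sums of 147 to 163 FPKM in knockout and 127 to 134 FPKM in wild-type libraries. Of these genes, 6 had a log2 change above 0, with a median of 0.18. At a limma unadjusted p under 0.05, 4 were higher in knockout kidneys, where the share over all genes was 9.14%. Wild-type library 3 stood apart. It held 121 FPKM of Xist, a transcript of female cells, against at most 0.155 FPKM in the other 5 libraries, and 0.353 FPKM of the Y-linked Ddx3y, against at least 30.7 FPKM in the others. It also held the highest sum of neighbouring-tissue markers, 68.0 FPKM against 31.1 to 40.0 FPKM elsewhere. Of the 9 tested 0 were called between genotypes, a test that cannot show tissue carried into 1 library. Values without wild-type library 3 are therefore given beside the results it touches.

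No PDGF gene passed the test between genotypes. Of the 6, 4 genes (Pdgfa, Pdgfb, Pdgfc and Pdgfra) had a positive log2 change and Pdgfd and Pdgfrb a negative one, all smaller than 0.5 in size. Over all genes tested, 49.6% had a log2 change above 0. Of the 6 genes, 0 were called by limma at an adjusted p under 0.05, against 0.734% of the 16899 genes tested (0.130% higher and 0.604% lower in knockout kidneys), and 0 were called in any of 15 alternative settings. At an unadjusted p under 0.05 there were 4 (Pdgfa, Pdgfc, Pdgfd and Pdgfrb), where the share over all genes was 16.1%. Groups did not overlap for 4 (Pdgfa, Pdgfb and Pdgfc higher and Pdgfd lower in knockout kidneys), where the share over all genes was 24.3%. Without wild-type library 3 the same 4 genes did not overlap, at a share of 39.4% over all genes, and 0 of the 6 were called, against 0.870% of all genes. Fold values below are ratios of mean FPKM, and log2 changes are knockout minus wild type on the log2(FPKM + 1) scale, which understates the change of low genes. In whole-kidney RNA, fewer cells of a type and less RNA per cell cannot be told apart.

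**Figure D1:**
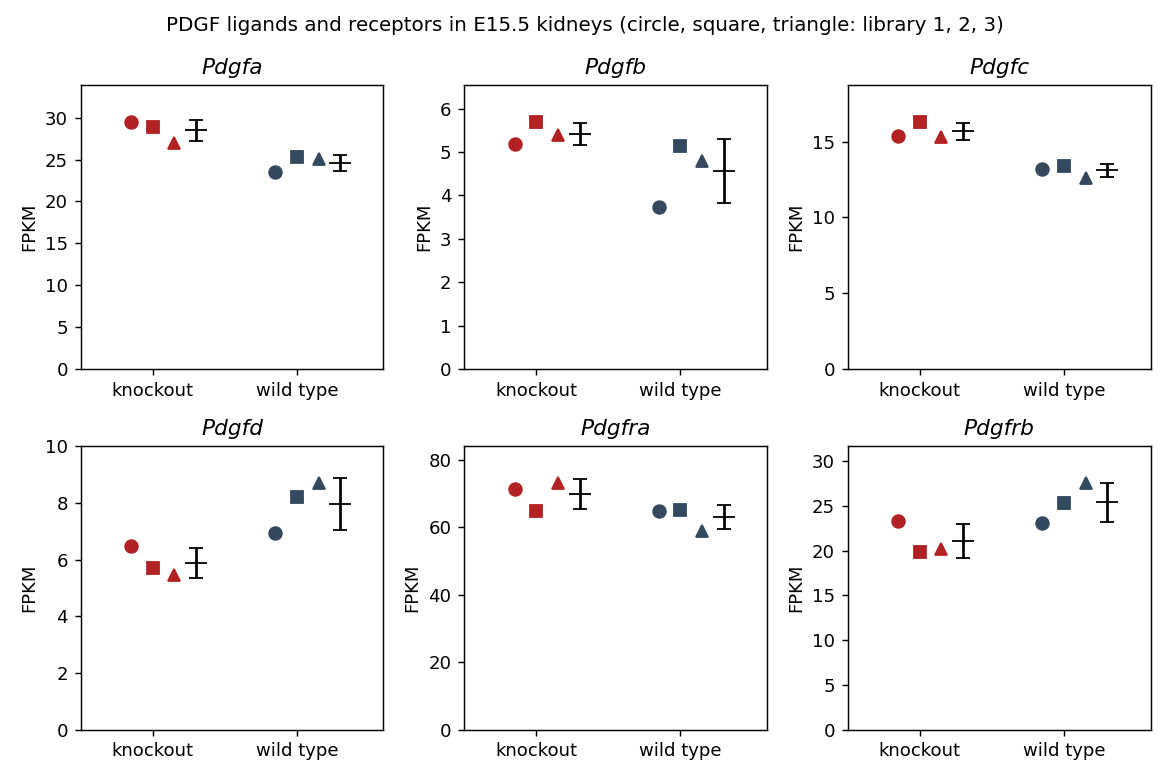
FPKM of each PDGF gene (vertical axis, from 0) in 3 knockout (red) and 3 wild-type (dark) libraries, with the mean and SD of each genotype as black bars. Pdgfa, Pdgfb and Pdgfc lie higher and Pdgfd lower in every knockout library than in any wild-type library, while Pdgfra and Pdgfrb overlap between genotypes.

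Pdgfra (chromosome 5, 75152292 to 75198215, GRCm38), the alpha receptor of interstitial mesenchyme, was the most abundant of the 6 in every library. It measured 71.3, 64.8 and 73.2 FPKM in knockout kidneys, against 64.9, 65.2 and 58.8 FPKM in wild-type kidneys. Knockout library 2 lay just under wild-type libraries 1 and 2, so the genotypes overlapped. The mean of 69.8 ± 4.38 FPKM in knockout and 63.0 ± 3.61 FPKM in wild-type kidneys (SD, n = 3 each) gave a log2 change of 0.14 (SE 0.07, 95% confidence interval -0.01 to 0.30, limma adjusted p = 0.350, exact permutation p = 0.30). Without wild-type library 3, the lowest of the 6, the log2 change was 0.10 (limma adjusted p = 0.502). The gene shares 456 bp and 166 bp of exon with the opposite-strand models Gm42802 and Gm42803, and use of strand in the quantification is not stated. It also shares 30 bp with the same-strand microRNA model Mir7025, a model of 74 bp that the table lists at 12.3, 4.92 and 14.9 FPKM in knockout libraries and at 0 in all 3 wild-type libraries. Taken at its full length, 1 fragment on this model was worth about 0.86 to 1.06 FPKM, which puts the knockout values at about 13.3, 4.7 and 17.3 fragments. The depth behind this was read from long genes, and the length used in the quantification is not stated, so these counts are rough. Mir7025 was called by limma (adjusted p = 0.0352), but not without any 1 library except knockout library 2 (limma adjusted p between 0.0599 and 0.176). The call was also lost without the trend option (limma adjusted p = 0.0513) and with the replicate number as a block (limma adjusted p = 0.120).

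Pdgfrb (chromosome 18, 61045150 to 61085061), the beta receptor of pericytes and mesangial cells, measured 23.3, 19.9 and 20.2 FPKM in knockout kidneys, against 23.1, 25.3 and 27.6 FPKM in wild-type kidneys. Knockout library 1 and wild-type library 1 were nearly equal, and knockout libraries 2 and 3 were lower than every wild-type library. Means were 21.1 ± 1.90 FPKM in knockout and 25.4 ± 2.21 FPKM in wild-type kidneys (SD, n = 3 each), 83.3% of wild type. The log2 change of -0.25 (SE 0.09, 95% confidence interval -0.45 to -0.05) did not pass the test (unadjusted p = 0.0199, limma adjusted p = 0.227, exact permutation p = 0.20). Without wild-type library 3, the highest of the 6, it was -0.19 (unadjusted p = 0.0648, limma adjusted p = 0.289). Without knockout library 1 it was -0.32 (limma adjusted p = 0.250).

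The receptors were next compared within each library. Pdgfra made up 75.4%, 76.5% and 78.4% of the summed receptor FPKM in knockout libraries, against 73.7%, 72.0% and 68.1% in wild-type libraries, with no overlap. The log2 ratio of Pdgfra to Pdgfrb averaged 1.68 ± 0.12 in knockout and 1.28 ± 0.20 in wild-type kidneys (SD, n = 3 each), a difference of 0.40. The exact two-sided permutation test gave p = 0.10, the smallest that 3 against 3 libraries allow, and 0.167 after Benjamini-Hochberg adjustment over 5 ratios. Without wild-type library 3 the difference was 0.290. The summed receptor level overlapped between genotypes, at 90.9 ± 5.39 FPKM in knockout and 88.4 ± 2.10 FPKM in wild-type kidneys. The means differed by less than the knockout SD, but by more than the wild-type SD.

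Pdgfa (chromosome 5, 138976014 to 138997370), an alpha-receptor ligand made by epithelia, was the most abundant ligand. It measured 29.5, 28.9 and 27.0 FPKM in knockout kidneys, against 23.5, 25.3 and 25.1 FPKM in wild-type kidneys, so every knockout library lay above every wild-type library. Means were 28.5 ± 1.29 FPKM in knockout and 24.6 ± 0.955 FPKM in wild-type kidneys (SD, n = 3 each), 116% of wild type. The log2 change of 0.20 (SE 0.06, 95% confidence interval 0.07 to 0.34) had an unadjusted p of 0.00911 and a limma adjusted p of 0.18. The exact permutation p was 0.10. Without wild-type library 3 the log2 change was 0.22 (limma adjusted p = 0.165). Pdgfa shares 813 bp of exon with the opposite-strand model 6330403L08Rik.

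Pdgfc (chromosome 3, 81036416 to 81214040), the CUB-domain ligand of the alpha receptor, had the smallest p of the 6. It measured 15.4, 16.3 and 15.3 FPKM in knockout kidneys, against 13.2, 13.4 and 12.6 FPKM in wild-type kidneys. The lowest knockout library lay above the highest wild-type library. Means were 15.7 ± 0.564 FPKM in knockout and 13.1 ± 0.427 FPKM in wild-type kidneys (SD, n = 3 each), 120% of wild type. The log2 change was 0.25 (SE 0.06, 95% confidence interval 0.11 to 0.38, unadjusted p = 0.00384, limma adjusted p = 0.138, exact permutation p = 0.10). Without wild-type library 3, the lowest of the 6, it was 0.22 (unadjusted p = 0.0129, limma adjusted p = 0.154). Pdgfc shares 147 bp of exon with the opposite-strand model Gm16000.

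Pdgfb (chromosome 15, 79995874 to 80014977), the endothelial ligand of the beta receptor, was the least abundant gene of the 6. It measured 5.18, 5.69 and 5.38 FPKM in knockout kidneys, against 3.74, 5.13 and 4.80 FPKM in wild-type kidneys. The gap between the genotypes was narrow, and wild-type library 1 was far lower than the other 5. Means were 5.42 ± 0.256 FPKM in knockout and 4.56 ± 0.728 FPKM in wild-type kidneys (SD, n = 3 each). The log2 change of 0.22 (SE 0.11, 95% confidence interval -0.04 to 0.48) was not called (limma adjusted p = 0.388, exact permutation p = 0.10). It was 0.11 without wild-type library 1 (limma adjusted p = 0.638) and 0.25 without wild-type library 3 (limma adjusted p = 0.332). Endothelial markers, the known source of Pdgfb, summed to 392 to 396 FPKM over 17 genes in knockout and 375 to 377 FPKM in wild-type libraries. Of those 17 genes 12 lay above 0 and 0 were called. Their part in the Pdgfb values was not tested.

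Pdgfd (chromosome 9, 6168584 to 6378850), the CUB-domain ligand of the beta receptor, had the largest log2 change in size. It measured 6.48, 5.70 and 5.47 FPKM in knockout kidneys, against 6.94, 8.22 and 8.71 FPKM in wild-type kidneys. The highest knockout library lay under the lowest wild-type library, with the closest values in library 1 of each genotype. Means were 5.88 ± 0.526 FPKM in knockout and 7.95 ± 0.913 FPKM in wild-type kidneys (SD, n = 3 each), 74.0% of wild type. The log2 change of -0.38 (SE 0.10, 95% confidence interval -0.62 to -0.14) had an unadjusted p of 0.00673 and a limma adjusted p of 0.167 (exact permutation p = 0.10). Without wild-type library 3, the highest of the 6, it was -0.32 (limma adjusted p = 0.188), and without wild-type library 1 it was -0.46 (limma adjusted p = 0.123).

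**Figure D2:**
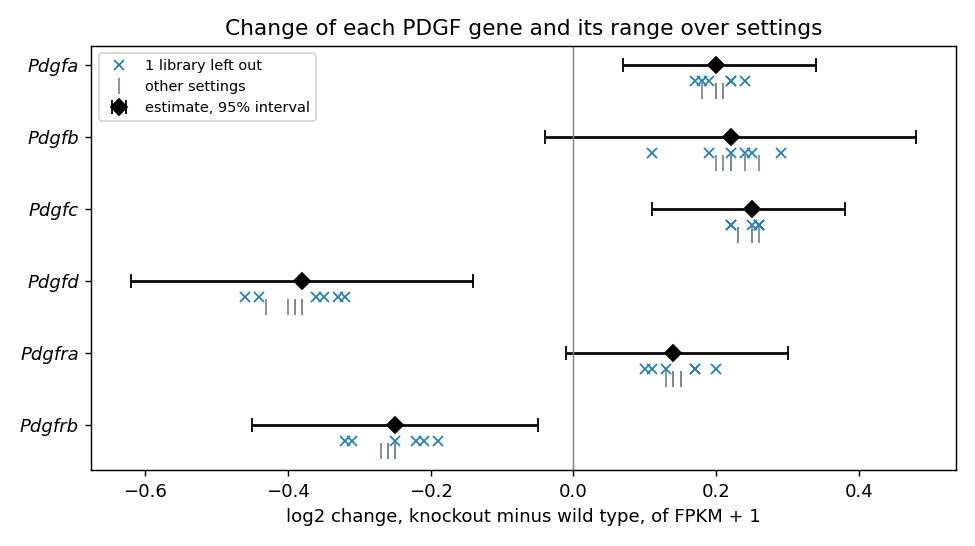
Log2 change of each PDGF gene, knockout minus wild type, on the log2(FPKM + 1) scale (diamonds, with 95% confidence intervals), with the values when 1 library is left out (crosses) and under the other settings (ticks). All settings keep the sign of each gene, and the intervals of Pdgfb and Pdgfra include 0.

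The shares of Pdgfd and Pdgfa in the ligand pool did not overlap between genotypes. Pdgfd made up 11.4%, 10.1% and 10.3% of the summed ligand FPKM in knockout libraries, against 14.6%, 15.8% and 17.0% in wild-type libraries, lower in every knockout library. Pdgfa made up 52.2%, 51.1% and 50.9% in knockout libraries, against 49.6%, 48.6% and 49.0% in wild-type libraries, higher in every knockout library. Pdgfc made up 28.2 ± 0.886% in knockout and 26.1 ± 1.69% in wild-type kidneys (SD, n = 3 each), with overlap. Pdgfb made up 9.78 ± 0.543% in knockout and 9.04 ± 1.04% in wild-type kidneys, with overlap. The 4 ligands summed to 55.5 ± 1.98 FPKM in knockout and 50.2 ± 2.42 FPKM in wild-type kidneys. The shares are a description, with no test.

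**Figure D3:**
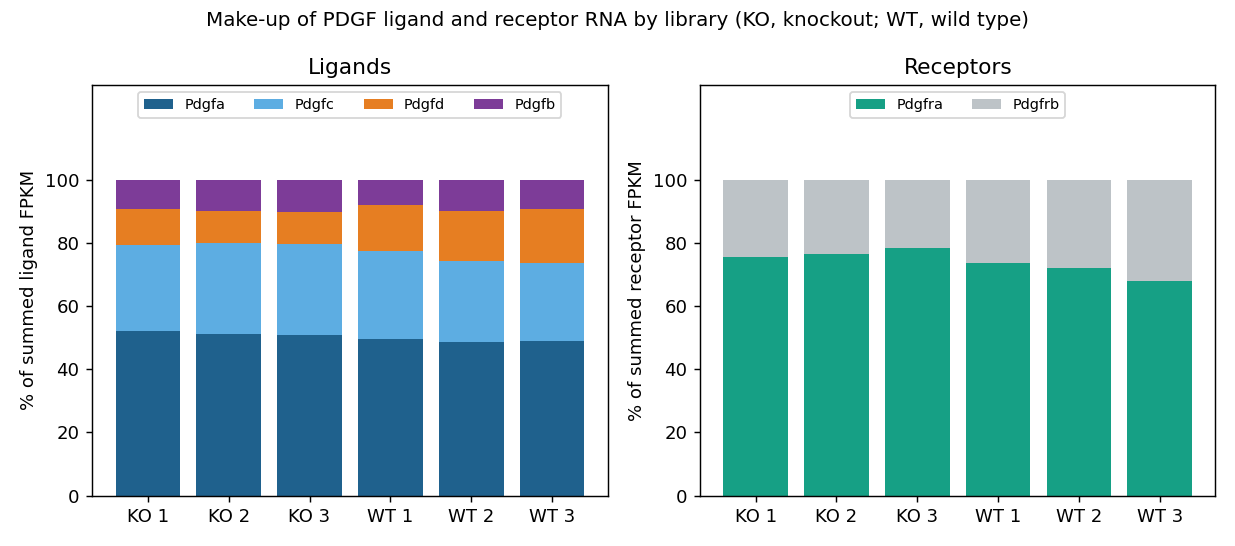
Percentage of the summed ligand FPKM held by each ligand gene (left) and of the summed receptor FPKM held by each receptor gene (right) in each library, as stacked bars. The Pdgfd band is 10.1% to 11.4% in knockout and 14.6% to 17.0% in wild-type libraries, and the Pdgfra band is 75.4% to 78.4% in knockout and 68.1% to 73.7% in wild-type libraries.

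The order of levels followed from these values. In knockout kidneys it ran Pdgfra, Pdgfa, Pdgfrb, Pdgfc, Pdgfd and Pdgfb, and only the neighbours Pdgfd and Pdgfb overlapped between libraries. In wild-type kidneys it ran Pdgfra, Pdgfrb, Pdgfa, Pdgfc, Pdgfd and Pdgfb, and only the neighbours Pdgfrb and Pdgfa overlapped. Pdgfa thus lay above Pdgfrb in all knockout libraries, while the order of this pair was not fixed among wild-type libraries.

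Each ligand was then set against its main receptor within a library. The log2 ratio of Pdgfb to Pdgfrb was -1.98, -1.64 and -1.73 in knockout libraries, against -2.35, -2.10 and -2.30 in wild-type libraries. It was higher in every knockout library, by 0.47 on average, with an exact permutation p of 0.10 (0.167 adjusted over the 5 ratios). The log2 ratio of Pdgfd to Pdgfrb was -1.70, -1.64 and -1.71 in knockout libraries, against -1.60, -1.52 and -1.56 in wild-type libraries. It was lower in every knockout library, by a difference of -0.12 (exact permutation p = 0.10, adjusted 0.167), which is smaller than the log2 change of either gene alone. For the alpha-receptor ligands the groups overlapped. The log2 ratio of Pdgfa to Pdgfra differed by 0.06 (exact permutation p = 0.700) and that of Pdgfc to Pdgfra by 0.10 (exact permutation p = 0.20). Without knockout library 2 these differences were -0.004 and 0.022. Without wild-type library 3 the differences for Pdgfb and Pdgfd against Pdgfrb were 0.444 and -0.123, and 3 against 2 libraries cannot give a p below 0.20.

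**Figure D4:**
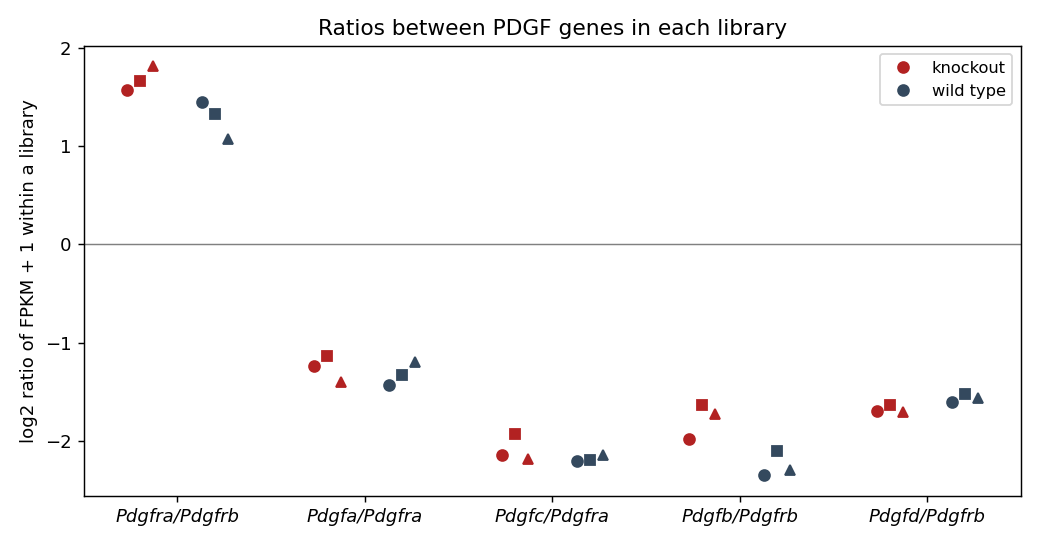
Log2 ratio of FPKM + 1 between pairs of PDGF genes within each knockout (red) and wild-type (dark) library (circle, square and triangle for library 1, 2 and 3). The Pdgfra/Pdgfrb and Pdgfb/Pdgfrb ratios are higher and the Pdgfd/Pdgfrb ratio lower in all knockout libraries, and the other ratios overlap.

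Markers of the cells that carry the receptors were lower in summed FPKM in knockout kidneys, but the members of the mural and mesangial lists did not share a direction. Called members are read against 0.604% of all genes called lower and 0.130% called higher, or 0.870% in either direction without wild-type library 3. Mural and pericyte markers summed to 194 to 200 FPKM in knockout and 217 to 228 FPKM in wild-type libraries, with 1 of 14 tested called lower (Gucy1a1, log2 -0.82) and 0 higher, or 1 in each direction without wild-type library 3. In that list 8 of 14 genes had a log2 change above 0, and the median was 0.03 (0.08 without wild-type library 3). At a limma unadjusted p under 0.05, 3 were higher and 4 lower, where the shares over all genes were 9.14% and 6.94%. Smooth muscle markers summed to 73.6 to 98.7 FPKM in knockout and 173 to 199 FPKM in wild-type libraries, with 3 of 9 tested called lower (Acta2, log2 -0.84, Myl9, -1.60, and Tagln, -0.86), and 0 without wild-type library 3. None of these 9 lay above 0, and the median was -0.43 (-0.30 without that library). That library held the lowest wild-type value of Myl9 (90.0 FPKM) and Tagln (16.8 FPKM). For Acta2 it lay between the other wild-type libraries (34.1 FPKM). Leaving it out also leaves fewer libraries, and why the calls were lost was not tested. Stromal progenitor markers summed to 725 to 782 FPKM in knockout and 888 to 1090 FPKM in wild-type libraries, with 1 of 15 called lower (Col3a1, log2 -0.62), and 2 without wild-type library 3. Here 2 of 15 lay above 0, and the median was -0.16 (-0.31 without that library). Mesangial and renin cell markers, a list that includes Pdgfrb, summed to 161 to 180 FPKM in knockout and 194 to 229 FPKM in wild-type libraries, with 2 of 9 called lower (Akr1b7, log2 -1.49, and Fhl2, -0.49). In that list 5 of 9 lay above 0, with a median of 0.02 (0.15 without wild-type library 3). At a limma unadjusted p under 0.05, 2 were higher and 4 lower, Pdgfrb among the lower, against the same shares of 9.14% and 6.94%. Set beside these sums, Pdgfrb was at 83.3% and Pdgfra at 111% of wild type. For the nephron and ureteric lists the sums of nephron progenitor and podocyte markers were higher in every knockout library, and those of tubule and ureteric markers overlapped. Nephron progenitor markers summed to 125 to 132 FPKM in knockout and 119 to 124 FPKM in wild-type libraries, with 0 of 8 called. Podocyte markers summed to 99.8 to 115 FPKM in knockout and 87.0 to 98.6 FPKM in wild-type libraries, and tubule and ureteric markers to 236 to 262 FPKM in knockout and 209 to 240 FPKM in wild-type libraries, with 0 called in either list. Macrophage and platelet markers, another source of PDGF ligands, summed to 33.3 to 36.1 FPKM in knockout and 34.6 to 38.0 FPKM in wild-type libraries, and red blood cell genes to 5870 to 8880 FPKM in knockout and 5150 to 8470 FPKM in wild-type libraries, with 0 called in either. None of these lists held a gene at 0 in all libraries. The part of these cell types in the PDGF values was not tested.

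Genes that prepare or bind PDGF ligands did not move in one direction. Of 13 listed, 12 were tested and 0 were called, with unadjusted p under 0.05 for 3 that were higher and 4 that were lower in knockout kidneys (9.14% and 6.94% of all genes). Their median log2 change was -0.04, against 0.00 over all genes tested. Nrp1, a co-receptor that also binds PDGF, measured 58.0 ± 0.606 FPKM in knockout and 67.7 ± 1.52 FPKM in wild-type kidneys (SD, n = 3 each; log2 -0.22, limma adjusted p = 0.0975). Sparc, whose matrix protein binds PDGF-B, measured 143 ± 5.91 FPKM in knockout and 177 ± 9.88 FPKM in wild-type kidneys (log2 -0.30, limma adjusted p = 0.0975). For both genes the groups did not overlap. None of the proteases was called, and their log2 changes had both signs. Hpn (hepsin), an epithelial serine protease, had the largest in size, with 11.7, 9.03 and 7.75 FPKM in knockout kidneys, against 6.11, 6.06 and 5.44 FPKM in wild-type kidneys (log2 0.60, limma adjusted p = 0.118, groups not overlapping). The proprotein convertase gene Pcsk5 measured 11.7 ± 0.597 FPKM in knockout and 14.0 ± 0.290 FPKM in wild-type kidneys (log2 -0.25, limma adjusted p = 0.152, groups not overlapping). Plau (urokinase), which can free PDGF-D from its CUB domain, measured 15.1 ± 0.882 FPKM in knockout and 18.8 ± 2.66 FPKM in wild-type kidneys (log2 -0.29, limma adjusted p = 0.247). Plat (tissue plasminogen activator), which frees PDGF-C, measured 43.9 ± 1.59 FPKM in knockout and 46.4 ± 1.84 FPKM in wild-type kidneys (log2 -0.08, limma adjusted p = 0.504). St14 (matriptase), an epithelial protease that can also process PDGF-D, measured 6.38 ± 1.19 FPKM in knockout and 4.06 ± 0.748 FPKM in wild-type kidneys (log2 0.54, limma adjusted p = 0.172). Furin, the convertase that matures PDGF-A and PDGF-B, measured 7.06 ± 0.771 FPKM in knockout and 5.10 ± 1.18 FPKM in wild-type kidneys (log2 0.42, limma adjusted p = 0.253; 0.25 without wild-type library 1, limma adjusted p = 0.377). The receptor-like gene Pdgfrl measured 3.63 ± 0.371 FPKM in knockout and 3.20 ± 0.350 FPKM in wild-type kidneys, with overlap. Groups did not overlap for Plau, St14 and Furin either, but did for Plat. In the whole list, groups did not overlap for 3 genes higher and 4 lower in knockout kidneys. Over all genes these shares were 12.5% and 11.8%.

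Downstream genes were described in the same way, and 0 of them were called. Among 18 adaptors and enzymes the unadjusted p was under 0.05 for 6 higher and 2 lower genes (again against 9.14% and 6.94% of all genes), with a median log2 change of 0.06 (0.10 without wild-type library 3). The kinase gene Src measured 20.6 ± 2.42 FPKM in knockout and 13.5 ± 2.30 FPKM in wild-type kidneys (SD, n = 3 each; log2 0.58, limma adjusted p = 0.126), and Fyn 17.5 ± 0.895 FPKM in knockout and 14.5 ± 1.37 FPKM in wild-type kidneys (log2 0.26, limma adjusted p = 0.197). For 15 negative regulators these counts were 4 higher and 1 lower, with a median of 0.07 (0.13 without wild-type library 3). Spry1, a feedback inhibitor of receptor tyrosine kinases that ureteric cells also express, measured 33.6 ± 4.77 FPKM in knockout and 22.3 ± 1.99 FPKM in wild-type kidneys (log2 0.57, limma adjusted p = 0.0782). Its relative Spry4 measured 4.82 ± 0.512 FPKM in knockout and 3.37 ± 0.302 FPKM in wild-type kidneys (log2 0.41, limma adjusted p = 0.140). Of 12 tested early response genes, which growth factors other than PDGF and tissue dissection also induce, the counts were 3 higher and 0 lower, with a median of 0.16 (0.26 without wild-type library 3). Ier2 measured 15.2 ± 0.979 FPKM in knockout and 10.6 ± 1.65 FPKM in wild-type kidneys (log2 0.49, limma adjusted p = 0.118), and Myc 15.4 ± 2.71 FPKM in knockout and 10.7 ± 1.31 FPKM in wild-type kidneys (log2 0.48, limma adjusted p = 0.176).

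Among relatives of the PDGF family, 1 of 10 tested genes was called. Vegfd, a lymphatic growth factor of the PDGF and VEGF superfamily, measured 5.44, 4.24 and 4.17 FPKM in knockout kidneys, against 8.92, 9.13 and 9.08 FPKM in wild-type kidneys. It fell to 51.0% of wild type (log2 -0.85, SE 0.10, limma adjusted p = 0.0128), and the groups did not overlap. The call was lost without knockout library 2 or 3 or wild-type library 2 (limma adjusted p = 0.0703, 0.0620 and 0.0817) and kept without wild-type library 3 (limma adjusted p = 0.0355). Kit and Kdr, receptor tyrosine kinase genes that neighbour Pdgfra on chromosome 5, were not called. Kit measured 4.08 ± 0.237 FPKM in knockout and 4.75 ± 0.0590 FPKM in wild-type kidneys (log2 -0.18, limma adjusted p = 0.318), and Kdr 30.3 ± 1.27 FPKM in knockout and 32.4 ± 2.06 FPKM in wild-type kidneys (log2 -0.09, limma adjusted p = 0.502).

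**Figure D5:**
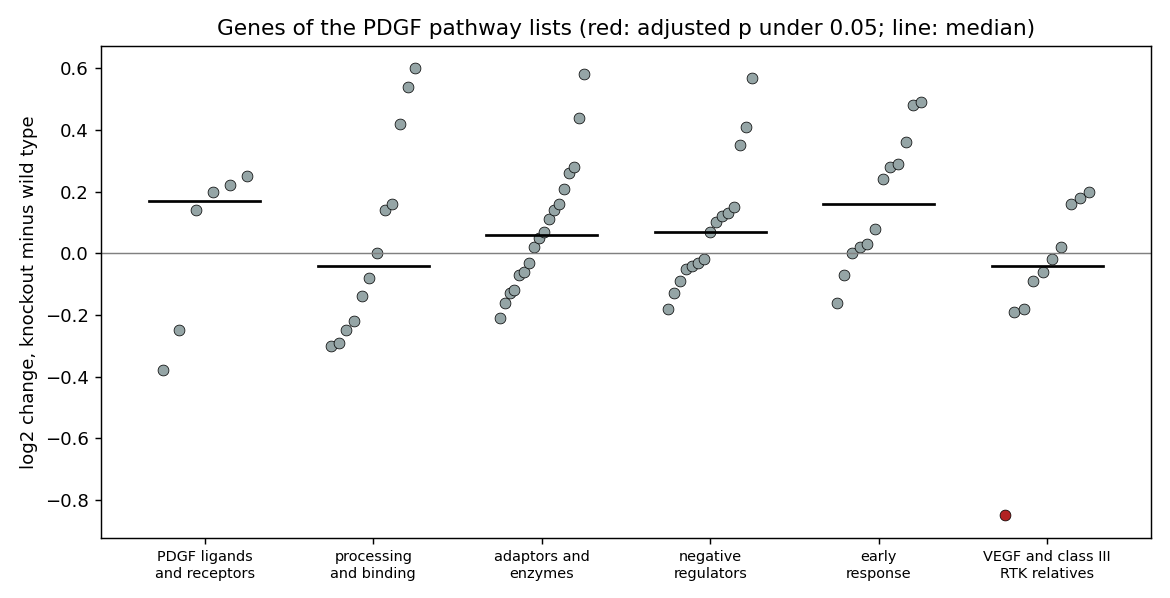
Log2 change, knockout minus wild type, of each tested gene (points) in the PDGF genes and 5 pathway lists, with the median of each list as a line. The only called gene is Vegfd at -0.85 (red), and list medians lie between -0.04 and 0.17.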

How the data were processed

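The table deposited by the authors holds FPKM for 24749 Ensembl genes in 6 libraries. The submitters' processing notes name bcl2fastq 2.17.1.14, Salmon (no version) and GRCm38 (mm10). These sources do not state the annotation, filters or use of strand. Against the geometric mean of each gene, the median log2 ratio was 0.0038 in every library, so the values were already scaled between libraries. No pair among 15 pairs of libraries was identical.

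Symbols were found for 24469 genes, and positions and exon overlaps came from GENCODE M21 (GRCm38). The 16899 genes averaging 0.5 FPKM or more were fitted as log2(FPKM + 1) with limma 3.58.1 in R 4.3.3, with genotype as the only term, trend and robust moderation, and Benjamini-Hochberg adjustment over all genes tested. The fit was also run on simulated data with SDs shuffled among genes. That run does not show how the trend option performs on these data. Exact two-sided permutation tests used the 20 assignments of libraries (scipy 1.17.1).

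The PDGF genes, the 5 pathway lists and the 12 marker lists were chosen with earlier results of these data known. Named genes are the 6 PDGF genes, Yap1 and Wwtr1, and the called members of each list. With none called, the 2 with the smallest p are named. For each PDGF gene, the 3 genes outside these 6 with the nearest profile are also named. For marker lists with no call, counts and sums are given. Mir7025, the proteases, Pdgfrl, Kit, Kdr and the sex-linked genes were added after their values were seen, for their role or position. Replicate numbers were not taken as pairs of libraries, since the labels state no pairing. Alternatives covered the pseudocount, the filter, scaling, moderation, a replicate block and each library left out.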

Additional observations from a re-analysis of the deposited data

How the results depend on the processing

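Signs of the log2 changes of the 6 PDGF genes were the same under all 15 alternatives, and 0 calls were made. With 1 library left out, log2 changes ranged from 0.17 to 0.24 for Pdgfa, 0.11 to 0.29 for Pdgfb, 0.22 to 0.26 for Pdgfc, -0.46 to -0.32 for Pdgfd, 0.10 to 0.20 for Pdgfra and -0.32 to -0.19 for Pdgfrb. Adjusted p over all alternatives lay between 0.119 and 0.646 for the 6 genes. The Pdgfa to Pdgfra difference in log2 ratio ranged from -0.004, without knockout library 2, to 0.128, and that for Pdgfc to Pdgfra from 0.022, without the same library, to 0.153. Over all genes, 102 were called lower and 22 higher. With libraries rescaled to equal sums, or without the trend option, 12 were called higher. Leaving out 1 library gave 45 to 96 lower and 7 to 51 higher, which also leaves fewer samples; the 51 were found without wild-type library 3. Among the pathway lists 1 gene, Vegfd, was called lower and 0 higher, 0 to 1 lower with 1 library left out, and with no filter 1 was called higher, the proteinase inhibitor A2m, named after its value was seen. With the replicate number as a replicate block, 30 genes were called lower and 2 higher, 0 of them in the pathway lists or among the PDGF genes. Same-numbered libraries had correlations of 0.024, -0.042 and 0.05 between their deviations, and not every library correlated best with its own number. The numbers were not taken as pairs, though correlations over so few libraries cannot exclude a shared litter or batch. The cause of these shifts was not tested. FPKM values without counts and 3 libraries a genotype limit the precision.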

Other observations

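Over the 6 libraries, the log2(FPKM + 1) profile of each PDGF gene, centred on its own mean, was compared with those of 14078 other genes. These averaged 1 FPKM or more and had a symbol that is not a model name such as Gm or Rik. The PDGF genes were left out of the search, so none of them could appear among the nearest. Such a search over 6 libraries finds close profiles for any gene with a small change, so these are descriptions with no test. Nearest to Pdgfa were Zbtb7b, Wrap53 and Taf1c (root mean square differences of 0.0127, 0.0175 and 0.0175 on the log2 scale), and nearest to Pdgfb were Khdrbs3, Trim46 and Mcat (0.0187, 0.0232 and 0.0258). Nearest to Pdgfc were Lpcat3, Slc48a1 and Hdhd5 (0.0223, 0.0250 and 0.0263), and nearest to Pdgfra were Ms4a7, Fgfr2 and Anks6 (0.0186, 0.0234 and 0.0251). Fgfr2, a receptor for fibroblast growth factors, measured 66.9 FPKM in knockout and 60.4 FPKM in wild-type kidneys, close to the level of Pdgfra. The genes with negative log2 changes had more distant neighbours. Nearest to Pdgfd were Marcks, Mn1 and Kcnj2 (0.0502, 0.0620 and 0.0721), and nearest to Pdgfrb were Ripor2, Afap1 and Kcnrg (0.0423, 0.0450 and 0.0473). Marcks, an actin-regulating substrate of protein kinase C, averaged 64.1 FPKM in knockout and 80.2 FPKM in wild-type kidneys (log2 -0.32, limma adjusted p = 0.118). None of these genes was called.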
